A study of Mus musculus with 6 samples.

Results

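Messenger RNA levels of 10 genes used as markers of mesothelial cells were followed in MLE-12 cells with and without cigarette smoke extract (CSE). The genes were Msln, Upk3b, Upk1b, Lrrn4, Wt1, Bnc1, Cldn15, Pkhd1l1, Muc16 and Gpm6a, out of 36047 genes in the deposited files. They were chosen by name and selected on the difference in counts and TPM between the CSE and PBS libraries, which was already known. That difference is therefore given for them as a description, without a test. MLE-12 is a single mouse line derived from lung tumours of animals that carried a viral large T antigen under the promoter of the human surfactant protein C gene, and its genotype is given as WT. Both groups grew in the same low-serum medium. The CSE group (3 libraries) received 5% extract with an optical density of 2.0 at 30% culture density, and the PBS group (3 libraries) received PBS instead. All cultures were collected at 24 h and polyA RNA was sequenced. The extraction text speaks of lung tissue, although every sample is described as the cell line.

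Mesothelium is the flat, mesoderm-derived epithelium that lines the pleura, pericardium and peritoneum. Its cells carry a glycoprotein-rich apical surface with microvilli, are held together by tight junctions and keep keratins, as other simple epithelia do. In the lung it covers the organ from outside, whereas the alveolar epithelium that MLE-12 is meant to represent comes from endoderm. Transcription factors such as Wt1 mark its embryonic precursor and, in mice, the cells that leave it during development.

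The marker set was present only in part. Against libraries of between 12093009 and 24050167 estimated counts, 8 of the 10 genes passed the filter on low counts and 2 did not. Msln and Upk3b lay at the 87.3 and 84.1 percentiles of all tested genes in PBS by TPM (a transcript level scaled for length and for depth). Wt1, Bnc1, Cldn15 and Pkhd1l1 lay between 3.44 and 6.34 TPM, and Lrrn4 and Upk1b at means of 1.6 and 1.31 TPM. Muc16 had no count in any library, and Calb2, the gene of the mesothelial stain calretinin, likewise had 0 counts in all of them. The same libraries expressed Nkx2-1, the lung epithelial transcription factor, at 121 ± 7.51 TPM in PBS and 106 ± 7.6 TPM in CSE (SD, n = 3). Other lung epithelial genes varied in PBS, with Krt8 and Foxa2 at means of 206 and 127 TPM. Epcam averaged only 2.36, Grhl2 0.595, Krt18 0.356 and Cldn7 0.163 TPM. The genes are therefore called mesothelial markers here by their usual use, without naming the cells mesothelial.

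Wt1 is described first in sequence, because its transcripts differ at a known splice site. Mouse Wt1 (chr2:105126529-105173616, plus strand, GRCm38) encodes a zinc finger protein that exists with and without an insert of the amino acids KTS between the last zinc fingers, as background. The insert comes from 9 optional bases at the end of an exon that starts at position 105169926 and ends at 105170018 in transcript Wt1-201 and at 105170009 in Wt1-202. The coding sequence across that junction is shown for the annotated transcripts that carried the coding signal, with the 9 optional bases in capitals.
Wt1-201: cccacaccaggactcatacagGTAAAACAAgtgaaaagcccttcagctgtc
Wt1-202: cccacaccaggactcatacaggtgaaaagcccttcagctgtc

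Promoter windows of 250 bases before the start were taken from RefSeq (GRCm38.p6) and were found for 6 of the 10 genes. The 2 shown here belong to expressed genes whose CSE libraries all lay below the PBS libraries and whose windows held a searched motif core. Lrrn4 and Cldn15 met this too but are not shown, since their windows overlap annotated exons. Capitals mark the TEAD core CATTCC, which reads GGAATG on the other strand, in Upk3b, and the aryl hydrocarbon receptor (AhR) core GCGTG in Bnc1. TEAD factors are the DNA-binding partners of YAP, and AhR is the receptor for aromatic hydrocarbons of smoke.
Upk3b, chr5:136038246-136038495, plus strand: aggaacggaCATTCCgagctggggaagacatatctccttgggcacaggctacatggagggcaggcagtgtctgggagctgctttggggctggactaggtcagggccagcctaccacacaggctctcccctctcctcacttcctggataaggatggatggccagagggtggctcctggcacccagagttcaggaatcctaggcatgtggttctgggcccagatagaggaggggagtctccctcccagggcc
Bnc1, chr7:81992300-81992549, minus strand: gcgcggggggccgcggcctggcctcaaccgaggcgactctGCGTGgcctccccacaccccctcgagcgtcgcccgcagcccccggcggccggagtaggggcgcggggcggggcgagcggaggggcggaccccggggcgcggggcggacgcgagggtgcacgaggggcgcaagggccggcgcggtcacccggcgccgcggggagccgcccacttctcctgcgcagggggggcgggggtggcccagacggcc

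The TEAD core began 241 bases before the start of Upk3b, 196 before Lrrn4 and 237 before Cldn15, and it also occurred 125 bases before 1 of the 2 starts of Gpm6a. Muc16 and Bnc1 held none. This core was found in 12.6% of 32851 mouse promoter windows of the same length, and it was added to the search after the Upk3b window had been seen. The AhR core, in 28.2% of all windows, occurred among these genes in Bnc1 alone, 210 bases before the start. A core of the antioxidant element, TGACNNNGC, in 10.2% of windows, occurred 216 bases before Cldn15 and 73 before Bnc1. Both strands were searched and no matches overlapped. The Bnc1 window held 83.6% G and C, against 60.8% for Upk3b and a median of 52.4% over all windows. A match is a string of letters and not evidence of binding.

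Mesothelin, Msln (chromosome 17, 25748613 to 25754378, minus strand), is a lipid-anchored surface glycoprotein that binds the mucin encoded by Muc16 and is used as a marker of mesothelial tumours. Msln measured 98.2, 130 and 100 TPM in the PBS libraries and 33.5, 33.2 and 29.6 TPM in the CSE libraries. Each CSE library lay far below each PBS library. The means were 109 ± 17.7 and 32.1 ± 2.19 TPM (SD, n = 3), and the fitted change was −1.69 ± 0.11 on the log2 scale (SE), or 3.23-fold lower. Its place among tested genes moved from the 87.3 to the 63.2 percentile. The most abundant transcript, Msln-207, took 53.7% of the gene's TPM in PBS and 49.2% in CSE, so the main form stayed in front. Msln-201 took 2.37% and 16.1%. Its level in single libraries, 1.17, 1.24 and 5.38 TPM in PBS against 6.70, 5.96 and 2.88 TPM in CSE, overlapped between groups. Its share of the gene's TPM did not overlap, and the lowest CSE share exceeded the highest PBS share. The difference in share was not tested. Such splits between near-identical transcripts are model estimates.

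Muc16, the large membrane mucin that carries the CA125 antigen, is annotated with 4 transcripts on chromosome 9 (18495455 to 18674530, minus strand). It had 0 counts in all 6 libraries. A count of 0 allows up to 3 counts, which is between 0.125 and 0.248 CPM (counts scaled to library size) in these libraries, so expression below that level was not detectable. The binding partner of Msln was thus not detected in cells in which Msln itself was abundant.

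The uroplakins are membrane proteins best known from the bladder lining, where they form rigid plaques, and Upk3b is also a marker of mesothelium. Upk3b (chromosome 5, 136038496 to 136046487, plus strand) measured 88.9, 83.3 and 94.3 TPM in PBS and 27.1, 28.9 and 25.5 TPM in CSE. The ranges were narrow and lay apart. The fitted change was −1.63 ± 0.08, or 3.09-fold lower, and 30.5% of the PBS mean was left, against 29.4% for Msln. Upk1b (chromosome 16, 38773184 to 38800328, minus strand), a tetraspanin that pairs with other uroplakins, was near the limit of measurement. It had 18, 23 and 31 counts in PBS and 12, 14 and 15 in CSE, or 1.20, 1.18 and 1.55 TPM against 0.913, 0.516 and 0.758 TPM. The groups lay apart by a small margin, and the fitted change of −0.81 ± 0.32 had the largest standard error of the 8 tested markers. Of the plaque partners known from the bladder, Upk2 had 0 counts in every library and Upk3a had 1 count in all, while Upk1a lay between 0.534 and 1.13 TPM over the 6 libraries.

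Lrrn4 (chromosome 2, 132868305 to 132880891, minus strand) encodes a leucine-rich repeat membrane protein that is used as a mesothelial marker in mouse lung. Its levels were 1.56, 1.57 and 1.68 TPM in PBS and 0.903, 0.512 and 0.584 TPM in CSE. The PBS libraries were nearly equal and every CSE library was lower. The fitted change was −1.24 ± 0.24, or 2.36-fold lower, and 41.6% of the PBS mean was left. Gpm6a, a membrane glycoprotein of the proteolipid family that is abundant in neurons, had 0, 5 and 6 counts in PBS and 2, 8 and 4 counts in CSE. Its depth-scaled ratio of CSE to PBS was 1.22, with 0.517 and 2.98 as the bounds of its 95% exact counting interval, and these counts cannot show a difference of that size. Intervals and count limits cover counting error only.

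Pkhd1l1 (chromosome 15, 44457494 to 44601369, plus strand) encodes fibrocystin-L, a very large membrane protein with a long extracellular part. Summed over transcripts, it measured 2.21, 3.34 and 4.76 TPM in PBS and 2.14, 0.557 and 0.538 TPM in CSE, so CSE replicate 1 stood just under PBS replicate 1. On CPM the groups were well apart, with 10.1, 13.3 and 14.7 CPM in PBS and 3.31, 2.79 and 3.05 CPM in CSE. The scales differ because short transcripts weigh more in TPM, and the one with most TPM in CSE replicate 1 was Pkhd1l1-204, a retained-intron transcript of 464 bases. It was listed at 1.30 TPM in CSE replicate 1 and at 0 in the other CSE libraries. The full coding transcript Pkhd1l1-203, of 12949 bases, measured 1.11, 1.45 and 1.69 TPM in PBS and 0.318, 0.291 and 0.336 TPM in CSE. The coding form was thus lower in each CSE library, and the gene's fitted change on counts was −2.06 ± 0.17, or 4.18-fold lower.

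Cldn15 (chromosome 5, 136966616 to 136975858, plus strand) encodes a claudin that forms cation-selective pores in tight junctions and is best known from the intestine. It measured 3.83, 5.06 and 5.01 TPM in PBS and 2.20, 1.47 and 1.71 TPM in CSE, with counts of 39, 76 and 68 against 29, 40 and 34. The groups lay apart on TPM, with 38.7% of the PBS mean left. The fitted change on counts, −0.82 ± 0.23 or 1.77-fold lower, was smaller than the TPM means imply. Part of the TPM difference lay in Cldn15-203, a noncoding processed transcript of 621 bases, which measured 1.66, 1.39 and 2.16 TPM in PBS and was listed at 0 in all CSE libraries. The coding forms together measured 2.17, 3.67 and 2.85 TPM in PBS and 2.20, 1.47 and 1.71 TPM in CSE, so CSE replicate 1 lay above PBS replicate 1 and the groups overlapped without the noncoding form. The coding forms Cldn15-201 and Cldn15-202 traded places between PBS libraries. Cldn15-202 was at 0 and Cldn15-201 at 3.67 TPM in PBS replicate 2, and the reverse held in the other PBS libraries, where Cldn15-201 was at 0.

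Among transcription factors, Bnc1 and Wt1 differed. Bnc1 (chromosome 7, 81966672 to 81992292, minus strand) encodes basonuclin, a zinc finger protein of stratified epithelia, germ cells and mesothelium. It measured 4.89, 5.26 and 5.52 TPM in PBS and 1.71, 1.52 and 2.02 TPM in CSE. The groups lay apart, the fitted change was −1.50 ± 0.14, or 2.83-fold lower, and 33.5% of the PBS mean was left. An annotated pseudogene that overlaps Bnc1 on the opposite strand was listed at 0 TPM. Wt1 measured 6.54, 5.77 and 6.71 TPM in PBS and 7.63, 5.65 and 5.23 TPM in CSE. Its groups overlapped on counts and on TPM, and the fitted change was 0.03 ± 0.15, with 97.3% of the PBS mean left. The CSE libraries both exceeded and fell below the PBS range.

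**Figure D1:**
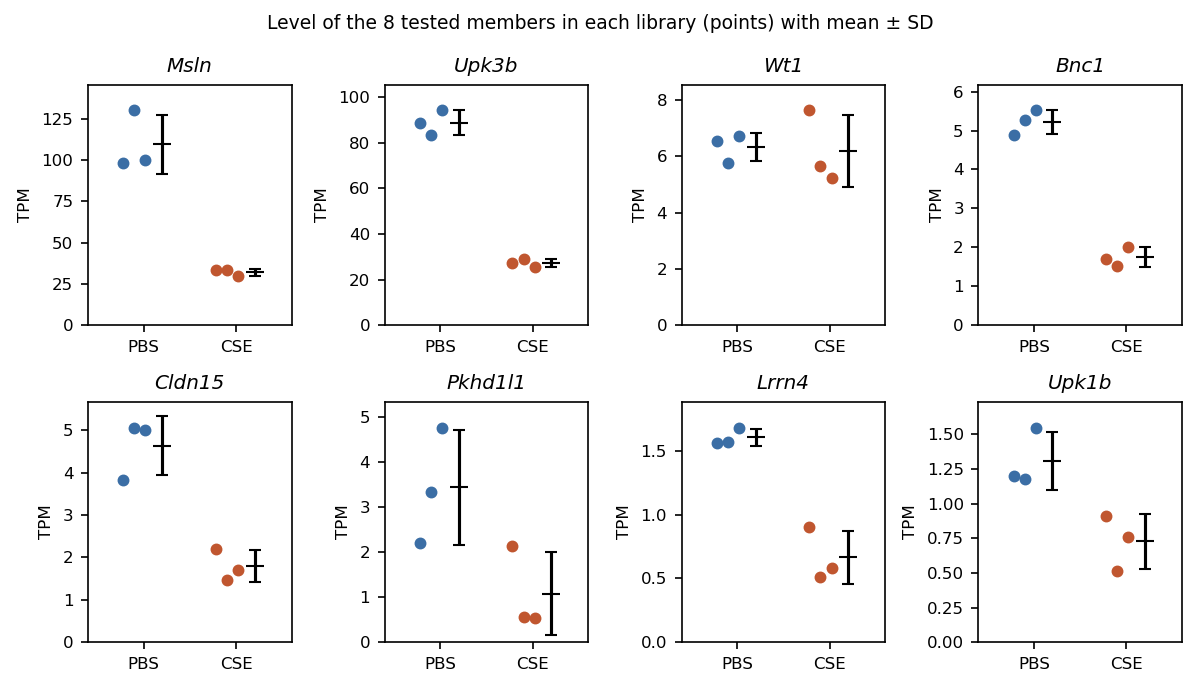
Level in TPM (vertical axes from 0) of the 8 tested mesothelial markers in each of 3 PBS and 3 CSE libraries, with points for libraries and bars for mean ± SD. The groups lie apart for every gene shown except Wt1, and for Pkhd1l1 CSE replicate 1 lies just under the lowest PBS library.

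The Wt1 transcripts gave more detail. Of 9 annotated transcripts, the 5 that start at the upstream first exon were listed at 0 in all libraries. The signal lay on Wt1-201 and Wt1-202, which start at a first exon 4354 bases downstream, and on retained-intron forms. Wt1-201, which holds the 9 optional bases shown above and lacks an optional exon of 51 bases (105144142 to 105144192), measured 4.22, 3.36 and 3.81 TPM in PBS and 3.86, 3.49 and 3.11 TPM in CSE. Wt1-202, without the 9 bases and with the 51-base exon, measured 1.30, 1.24 and 1.72 TPM in PBS and 2.03, 1.85 and 1.22 TPM in CSE. Neither form separated the groups. Wt1-201 held 76.4%, 73.1% and 68.9% of their sum in PBS and 65.6%, 65.3% and 71.9% in CSE, or 72.8 ± 3.8% and 67.6 ± 3.7% (SD, n = 3), with overlapping ranges. The transcripts differ at both features, so this share cannot separate the use of the 9 bases from that of the exon.

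**Figure D2:**
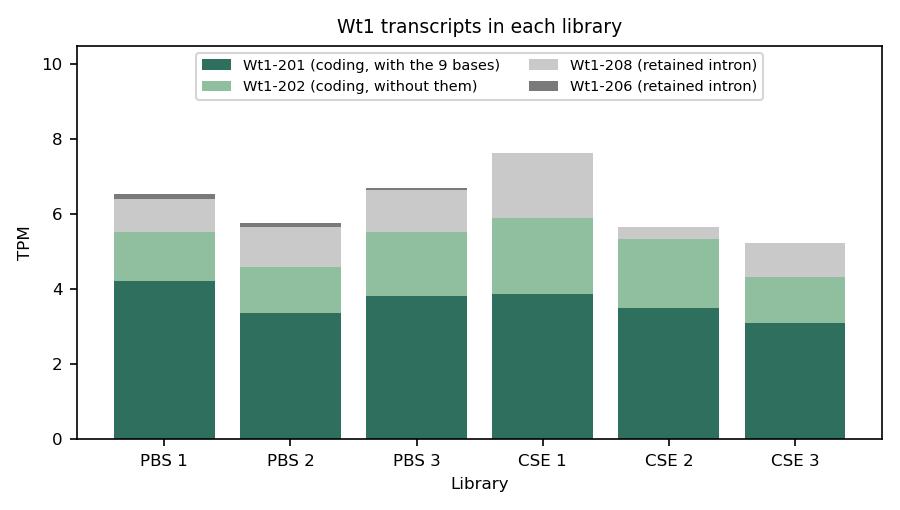
Stacked TPM of the Wt1 transcripts with signal (vertical axis from 0) in each PBS and CSE library. Wt1-201 is the largest part in all 6 libraries, and the total is highest in CSE replicate 1.

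In PBS the order of levels was Msln, Upk3b, Wt1, Bnc1, Cldn15, Pkhd1l1, Lrrn4, Upk1b, Gpm6a and Muc16. Library ranges of neighbours overlapped for Bnc1 and Cldn15, for Cldn15 and Pkhd1l1, and for Gpm6a and Muc16. In CSE the first 3 were the same, and the neighbours from Cldn15 through Bnc1, Pkhd1l1 and Upk1b to Lrrn4 each overlapped with the next. The summed TPM of the 10 genes lay between 207 and 235 in PBS and between 66.0 and 76.2 in CSE. Msln and Upk3b supplied most of this sum in both groups.

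Every CSE library was below every PBS library for 7 of the 8 tested markers, on TPM and on CPM, a pattern that held for 19.3% of all 13451 tested genes on TPM and 16.4% on CPM. As background, edgeR's quasi-likelihood fit called 11.4% of all tested genes at an adjusted p under 0.05 in either direction, 7.12% lower and 4.32% higher. The total behind this background, 1539 genes, became 963 with PBS replicate 3 left out, 859 with CSE replicate 2 left out and 837 with CSE replicate 3 left out. Since the markers were chosen with this contrast in view, no calls are given for them. Nothing is read from the number of markers that lay lower. The median fitted change was −1.37 over the 8 tested markers and 0.01 over all tested genes. In bulk libraries like these, fewer cells of a type and less RNA per cell cannot be told apart. Whether replicate libraries stem from separate cultures is not in the labels, so a p-value here weighs only library-to-library spread, which may be technical.

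**Figure D3:**
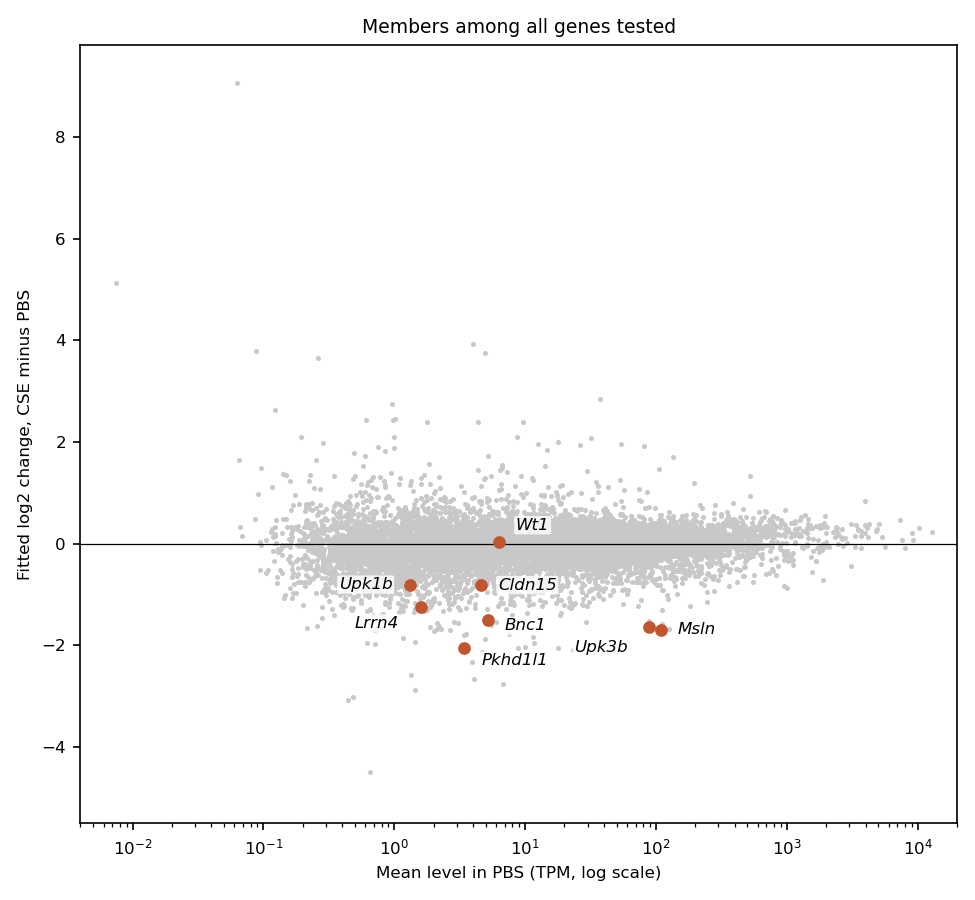
Fitted log2 change of CSE minus PBS (vertical axis) against mean TPM in PBS (horizontal log axis) for all 13451 tested genes (grey) and the 8 tested markers (orange). Msln and Upk3b sit apart at high level with changes of −1.69 and −1.63, while Wt1 lies at 0.03.

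Within the CSE group the markers did not all move alike. Relative to its group mean, the median deviation of the 8 tested markers on the log2 scale was 0.14 in CSE replicate 1, −0.16 in CSE replicate 2 and −0.01 in CSE replicate 3, and between −0.03 and 0.01 in the PBS libraries. CSE replicate 1, the library with the fewest counts, was the highest CSE library on CPM for Upk1b, Lrrn4, Wt1, Cldn15 and Pkhd1l1. By the distance of their centred log2(TPM + 1) profiles over the 6 libraries, which share the group difference, the 5 genes nearest to Msln among 9911, with the other markers left out of the ranking, were Fam180a (0.31), the water channel gene Aqp1 (0.369), Flrt2 (0.447), the mitochondrial creatine kinase gene Ckmt1 (0.466) and Serpinb1a (0.499). On the same measure the marker Upk3b lay at 0.439, nearer than Flrt2, and Bnc1 at 0.804. The remaining markers lay farther away, from Cldn15 at 0.956 to Gpm6a at 2.17. Fam180a averaged 126 TPM in PBS against 37.0 TPM in CSE.

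Of 20 further mesothelial genes, 10 passed the filter, and 5 of these fell and none rose, against 7.12% lower among all tested genes. The 5 include Bcam, which passed on its PBS libraries alone. This list and the other gene lists below were chosen with earlier results of these data known, so their counts are no independent support. Their median change was −0.52. Aldh1a2, which makes retinoic acid and is a marker of mesothelium and epicardium, measured 18.9, 18.5 and 19.1 TPM in PBS and 6.96, 6.49 and 7.21 TPM in CSE, with each group tightly spread. It fell by 1.36 ± 0.11 (edgeR adjusted p = 1.86e-05). Igfbp5, a secreted binder of insulin-like growth factors, fell by 0.90 ± 0.08 (edgeR adjusted p = 5e-05), with mean levels of 111 TPM in PBS and 56.1 in CSE. The annexin Anxa8 fell by 0.84 ± 0.11 (edgeR adjusted p = 0.000438), with mean levels of 19.3 TPM in PBS and 10.1 in CSE. Podxl, the sialomucin podocalyxin of apical membranes, fell by 0.76 ± 0.10 (edgeR adjusted p = 0.000454), with mean levels of 70.6 TPM in PBS and 39.4 in CSE.

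The fifth, Bcam, a laminin-binding surface glycoprotein, had only 56 and 22 counts and fell by 1.4 ± 0.38 (edgeR adjusted p = 0.038). Bcam measured 1.17, 1.11 and 1.03 CPM in PBS and 0.413, 0.541 and 0.234 CPM in CSE. It passed the filter only through PBS, the group where it was high, so nothing is read from its call. Its call was lost in 8 of 13 alternatives, among them DESeq2 and each left-out library, with adjusted p up to 0.171. The genes that were not called included Igfbp6, with 48.2 and 47.1 TPM, and C3 with 5.99 and 6.53 TPM. Slpi, a secreted protease inhibitor, had a fitted value of 0.90 ± 0.40 in the other direction (edgeR adjusted p = 0.181). Nkain4, outside the filter, had 34 counts in PBS and 10 in CSE, a depth-scaled ratio of 0.283 with a 95% exact counting interval of 0.125 to 0.586.

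Of 7 tested genes that mesothelium shares with simple epithelium, 6 fell, none rose and the tight junction gene Tjp1 was not called, with a median of −0.64. Of all tested genes 7.12% were lower. The keratin Krt19 fell by 0.88 ± 0.09 (edgeR adjusted p = 8.87e-05), with mean levels of 1010 TPM in PBS and 493 in CSE. Ezr, encoding the microvillus linker ezrin, fell by 0.64 ± 0.09 (edgeR adjusted p = 0.000638), with mean levels of 280 TPM in PBS and 170 in CSE. Pdpn, a mucin-like membrane protein of mesothelial and alveolar type 1 cells, fell by 0.63 ± 0.09 (edgeR adjusted p = 0.00105), with mean levels of 38.2 TPM in PBS and 23.3 in CSE, and the cadherin Cdh1 by 0.89 ± 0.14 (edgeR adjusted p = 0.00207), with means of 6.04 and 2.98 TPM. Krt7 and Krt8 stood at the threshold, both with an edgeR adjusted p = 0.0481. Krt7 kept its call in 5 of 15 alternatives and Krt8 in 10 of 16, and 32.3% of the 31-base words of Krt8 occur in other genes.

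Of 7 tested transcription factors of embryonic mesothelium, 3 fell, none rose and 4 were not called, with a median of −0.34, beside 7.12% lower over all tested genes. Gata6, a zinc finger factor of heart, lung and mesothelium, fell by 0.41 ± 0.07 (edgeR adjusted p = 0.00207), with mean levels of 263 TPM in PBS and 174 in CSE. The orphan nuclear receptor gene Nr2f2 fell by 0.34 ± 0.07 (edgeR adjusted p = 0.00675), with mean levels of 62.6 TPM in PBS and 46.8 in CSE, and Osr1 by 0.39 ± 0.08 (edgeR adjusted p = 0.00977), with means of 92.9 and 66.9 TPM. Without CSE replicate 3 the calls of Nr2f2 (adjusted p = 0.0511) and Osr1 were lost, and that of Osr1 was also lost without CSE replicate 1, at adjusted p up to 0.0583. Tbx18, a T-box factor of epicardium, had 93.4 and 74.3 TPM (edgeR adjusted p = 0.0512), and Gata4 had 31.4 and 28.9 TPM.

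**Figure D4:**
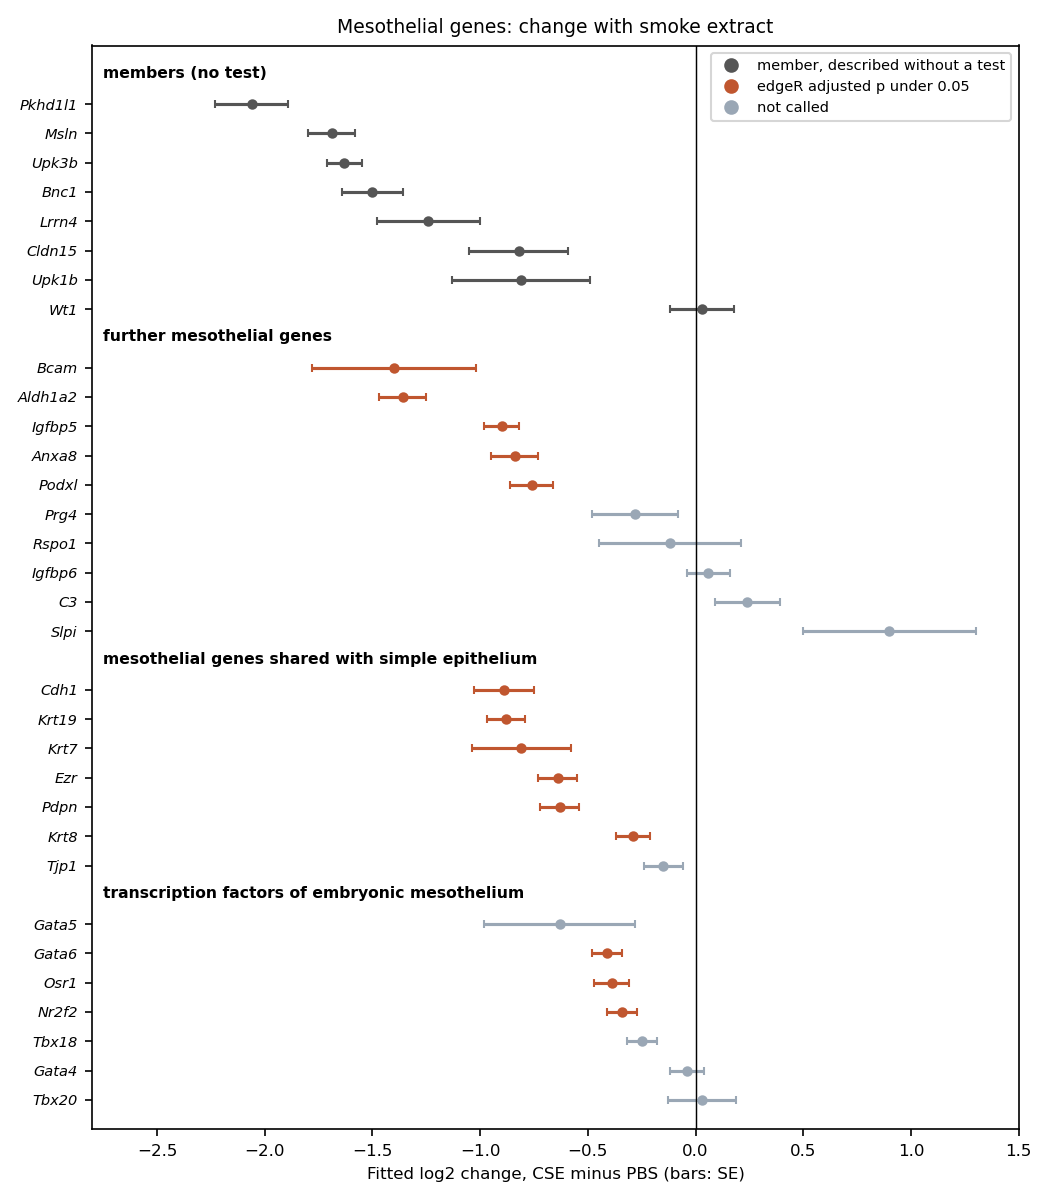
Fitted log2 change of CSE minus PBS with SE (horizontal axis) for the 8 tested markers, described without a test, and for the tested genes of 3 further lists, in orange where the edgeR adjusted p was under 0.05. Aldh1a2 at −1.36 and Bcam at −1.4 are the lowest list genes, and list genes with values above 0 are not called. Bcam passed the filter on its PBS libraries alone.

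Of 15 paralogues of the markers, 9 did not pass the filter on low counts. Of the 6 tested, edgeR called 0, against 11.4% of all tested genes, with 1 at an unadjusted p under 0.05. DESeq2 and limma-voom called 0 as well. With only 6 genes, a count of 0 cannot be told from that share. Mslnl, the neighbour and relative of Msln, had 91 counts in PBS and 40 in CSE and a fitted value of −1.21 ± 0.41 (edgeR adjusted p = 0.086). Pkhd1, the kidney fibrocystin gene, had a fitted value of 0.06, beside −2.06 for Pkhd1l1, and the difference between these paralogues was not tested. With no filter on low counts, Mslnl (−1.2, edgeR adjusted p = 0.0147) and Egr1 (−0.27, edgeR adjusted p = 0.0393) were called lower, the latter against an edgeR adjusted p = 0.754 with the filter and at almost the same fitted change.

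Genes next to the markers were examined because position played no part in choosing the set. Here before and after follow the chromosome coordinates and not the direction of transcription. For the minus-strand genes Msln, Lrrn4, Upk1b and Bnc1, a gene listed before thus lies beyond the end of the marker. Of the 20 nearest tested genes on either side, 4 fell, none rose and 16 were not called, with a median of −0.19, against 7.12% lower among all tested genes. Bmp2, a growth factor gene 671268 bases after Lrrn4, fell by 0.94 ± 0.07 (edgeR adjusted p = 1.15e-05), with mean levels of 39.4 TPM in PBS and 19.5 in CSE. Dtx2, a ubiquitin ligase gene of the Notch pathway 5624 bases before Upk3b, fell by 0.61 ± 0.07 (edgeR adjusted p = 0.000173), with mean levels of 61.1 TPM in PBS and 38.0 in CSE. B4galt4, 4135 bases before Upk1b, fell by 0.59 ± 0.13 (edgeR adjusted p = 0.0124) and Hdgfl3, 32199 bases before Bnc1, fell by 0.31 ± 0.08 (edgeR adjusted p = 0.022). Hdgfl3 kept its call in 9 of 16 alternatives, with adjusted p up to 0.122, and lost it with PBS replicate 3 or any 1 CSE library left out. B4galt4 also lost its call when PBS replicate 3 or CSE replicate 3 was left out, so that 2 neighbours were called in either case. Crls1, 1520 bases before Lrrn4, and Fis1, 382 bases before Cldn15, were not called, at 0.13 and −0.02. Mslnl, 283 bases before Msln, was not called at −1.21 ± 0.41, nor was Sh3gl3, 181548 bases after Bnc1, at −0.65 ± 0.23. Of the 20 neighbours, 14 had fitted values below 0, against 6598 of all 13451 tested genes.

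Markers of other cell types were summed in each library, and their part in the results was not tested. The sum of 10 lung epithelial genes was 439 to 487 TPM in PBS and 359 to 390 TPM in CSE. Most of it was Krt8, Foxa2 and Nkx2-1, at 206, 127 and 121 TPM in PBS, and 3 of the 10 were under 1 TPM in all libraries. Of 8 tested lung epithelial genes 3 were lower (Cdh1, Krt8 and Esrp1), against 7.12% of all tested genes. Cdh1 and Krt8 were also counted above among the genes shared with simple epithelium. The sum of 10 fibroblast genes was 873 to 1130 TPM in PBS and 483 to 549 TPM in CSE. Nearly all of it was Dcn, the matrix proteoglycan decorin, at 954 and 507 TPM, while Col13a1 had 0 counts. Of 5 tested fibroblast genes, 2 fell and 1 rose, against 7.12% lower and 4.32% higher among all tested genes. Dcn fell by 0.83 ± 0.11 (edgeR adjusted p = 0.000506), Col1a1 by 0.60 ± 0.07 (edgeR adjusted p = 0.000353), and Pdgfra rose by 0.84 ± 0.12 (edgeR adjusted p = 0.00125). Endothelial genes summed to 6.29 to 7.97 TPM in PBS and 4.73 to 6.40 TPM in CSE, with Cdh5 and Sox17 at 0. Muscle genes summed to 19.8 to 22.5 TPM and 15.9 to 19.4 TPM. Leukocyte genes summed to 6.45 to 9.20 TPM and 7.23 to 8.68 TPM, with Adgre1 at 0.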

How the data were processed

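Per the file headers, each deposited file gives 118489 transcripts an estimated count and a TPM each, in the format of kallisto. The submitters' processing notes list FastQC 0.12.1, fastp 0.20.1, DESeq2 1.40.2 and kallisto 0.46.2 with GRCm38, without roles. Not given in the sources used here are the index, the trimming and the strand setting. TPM is scaled by the authors' tool for effective length and depth, and estimated counts of transcripts that share reads are set by a model.

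Transcripts were matched by identifier to GENCODE vM21 (116816, 98.6%), the rest (1673, 0.638% to 0.664% of counts) were left out, and values were summed over 36047 genes. Summed counts were rounded. PBS libraries held 13647897, 18082404 and 19486697 estimated counts and CSE libraries 12093009, 24050167 and 17075604. Libraries of a group differed beyond counting noise (chi-square over its degrees of freedom 5.61 to 17.7).

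Genes were filtered (filterByExpr, minimum count 10), scaled by TMM (factors 0.976 to 1.027) and compared with edgeR (quasi-likelihood, two-sided, Benjamini-Hochberg over 13451 genes, threshold 0.05) on treatment alone. Biological variation was 9.2%, as edgeR's coefficient. The procedure was also run on counts simulated from the means of these data and the dispersions that edgeR estimated. Such counts follow the model of the fit, so that run cannot check the fit on these libraries. The alternatives tried were DESeq2, limma-voom, scaling by RLE or by library size, no filter, a 5 CPM minimum mean, an effective-length offset, limma on log2(TPM + 1) or log2(TPM + 0.1) above a mean of 1 TPM, a replicate block and each library left out. The markers and gene lists were chosen with earlier results of these data known. Named genes were all 10 markers, the 4 of smallest p in each list and among neighbours, and the 5 nearest Msln in profile among genes with at least 5 TPM. Other named genes were chosen after their values were seen. Over all annotated transcripts of a marker, 31-base words that also occur in other genes made up 3.61% for Msln, 0.0956% for Wt1 and 0.0% for each of the other markers. No deposited column of another sample was met (0). Software was Python 3.11.15 with numpy 2.4.6, scipy 1.17.1, pandas 2.3.3 and matplotlib 3.10.9, and R 4.3.3 with DESeq2 1.42.0, limma 3.58.1 and edgeR 4.0.16.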

Additional observations from a re-analysis of the deposited data

How the results depend on the processing

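The fitted values of single markers moved little: of 125 values under 16 alternatives, 119 stayed within the spread between replicates and 6 moved. Only Wt1 changed sign in some alternatives, with values between −0.05 and 0.12, on both sides of 0. The values that moved were under limma on log2(TPM + 1) for Upk1b (−0.42), Lrrn4 (−0.65), Bnc1 (−1.18) and Pkhd1l1 (−1.14) and under log2(TPM + 0.1) for Cldn15 (−1.33) and Pkhd1l1 (−1.79). The median over the tested markers was −1.08 with log2(TPM + 1), where the added constant shrinks low genes, and −1.64 with a mean of at least 5 CPM, where 5 markers remained, and −1.46 to −1.22 with 1 library left out. Genes called over all genes numbered 1539, and 998 and 985 with the TPM alternatives. With 1 library left out they numbered 837 to 1941 (963 without PBS replicate 3, 859 without CSE replicate 2, 837 without CSE replicate 3). Without PBS replicate 1 the split was 967 higher and 974 lower, and with no filter 1054 and 1145, against 581 and 958. The cause was not tested. Called genes numbered 1 to 4 among embryonic factors (1 without CSE replicate 3) and 2 to 4 among neighbours (2 without PBS replicate 3 or CSE replicate 3) with 1 library left out, and 2 among paralogues with no filter. Further mesothelial genes kept 4 calls without any 1 library, and genes shared with epithelium 4 to 5. With the replicate number as a block, 1022 genes were called (331 higher, 691 lower). Deviations of same-numbered libraries correlated at −0.124, 0.006 and −0.059, and 1 of 6 libraries correlated best with its own number, so the numbers were not taken to pair the libraries. At this depth Muc16, Gpm6a and Upk1b were limited by counts.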
